A study of Homo sapiens with 7 samples.

Results

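The replication-dependent histone genes were followed through replication timing arrays of the human cell lines K562, a chronic myeloid leukaemia line, and U2OS, an osteosarcoma line. Members were the oligonucleotide probes whose gene name on the array begins with HIST1H, HIST2H, HIST3H or HIST4H, and every probe placed on chromosome 6 from 26000000 to 28400000 (genome build hg19), the stretch that holds the large histone cluster. This gave 203 of the 170334 distinct probes of the larger array design. Of these, 198 lay in the stretch, called the cluster below, and 5 belonged to histone genes elsewhere. Histone names were carried by 36 probes for 34 genes: 4 genes of linker histone H1, 12 of H2A, 8 of H2B, 4 of H3 and 6 of H4. Of the 34 genes, 29 were in the cluster. The other 5 were HIST1H2AA in the lower flank, HIST2H2AB, HIST2H2AC and HIST2H2BE on chromosome 1, and HIST4H4 on chromosome 12. No probe carried a HIST3H name. Only HIST1H2AC and HIST1H2AL had 2 probes and the other 32 genes had 1.

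Growing cells of either line were given bromodeoxyuridine (BrdU) at 50 µM for 2 h and sorted by DNA content (80000 cells) into fractions from early and late S phase. DNA made during the pulse was pulled down with a BrdU antibody, amplified, and labelled with Cy3 (early) or Cy5 (late) for hybridisation to 1 array. The value of a probe was log2(early/late), with 0 set at the median probe of each array, so positive means earlier and negative means later than that probe. Of the 6 arrays of the larger design, 1 came from K562 after a new cell sorting method, 1 from K562 after the old method, 2 from U2OS handled manually and 2 from U2OS handled by automation. Which step was automated is not stated in the titles. A seventh array, labelled 44k, was from K562. Nothing in the labels says that arrays of a line came from separate cultures, so p-values measure only the spread between these arrays. Both manual U2OS arrays shared a slide and each other array had a slide of its own, so cell line, or handling method, and slide cannot be told apart.

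Replication-dependent histone genes are transcribed in S phase and supply the histones that package newly made DNA. They have no introns and lie in clusters, and their mRNAs end not in a poly(A) tail but in a conserved stem-loop that is bound by the stem-loop binding protein SLBP. Core histones H2A, H2B, H3 and H4 form the nucleosome and linker histone H1 binds the DNA between nucleosomes. DNA in active, gene-rich chromatin generally replicates in early S phase.

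Because the copies of a histone family are alike, a run of letters that several histone probes share is shown first. No run of 12 bases was shared by more histone genes than AAAGGCTCTTTT, which the probes of 8 of the 34 genes held on either strand, and it includes the start of the stem-loop known from histone mRNAs. Each probe is printed around these letters, in capitals, on the strand where they read as shown.

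HIST1H2AA: aaaaaacaAAAGGCTCTTTTca

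HIST1H3B: taaaacccAAAGGCTCTTTTc

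HIST1H2AB: ctaacagcAAAGGCTCTTTT

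HIST1H2BE: gtaaacccAAAGGCTCTTTTcag

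HIST1H2BG: taaaactcAAAGGCTCTTTTcagagcca

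HIST1H2AH: tggaaaacAAAGGCTCTTTTcagagc

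HIST1H3I: caaccccaAAAGGCTCTTTT

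HIST2H2AC: ccaagaccAAAGGCTCTTTTtagagcca

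The bases printed before the capitals differ between the genes. After the capitals, the printed bases are the same as far as each piece reaches, except that HIST2H2AC begins with t in place of c. The 12 letters in capitals were in 8 of the 36 histone probes (22.2%) and in 15 of all 169544 probes on chromosomes 1 to 22 and X (0.00885%). They were picked because histone probes share them, so the counts are a description. The longest run of bases that a histone probe shared with the probe of another histone gene was 19, with a median of 9.5. Histone probes had a median length of 53 bases and a median GC content of 42.7%, against 60 bases and 36.7% over all probes. Copies that are not on the array were not compared.

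Probes inside the genes and between them are shown next, because the results turn on the contrast of histone gene probes with the neighbouring windows. The first 2 lie in the linker histone genes HIST1H1T, the testis-specific variant, at chr6:26107921-26107976, and HIST1H1D, at chr6:26234666-26234718. The next carries no gene name and lies at chr6:26999929-26999988, in the window with the largest difference between the cell lines. The last 2, also without a gene name, lie at chr6:26419960-26420019 and chr6:26494860-26494919, in the window with the smallest difference. All are printed as on the array, with no part in capitals, at hg19 positions.

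HIST1H1T probe: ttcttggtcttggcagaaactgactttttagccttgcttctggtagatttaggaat

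HIST1H1D probe: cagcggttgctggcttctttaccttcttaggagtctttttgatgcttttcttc

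largest-difference window probe: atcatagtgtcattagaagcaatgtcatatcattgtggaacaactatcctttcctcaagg

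smallest-difference window probe A: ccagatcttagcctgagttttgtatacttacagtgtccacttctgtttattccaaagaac

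smallest-difference window probe B: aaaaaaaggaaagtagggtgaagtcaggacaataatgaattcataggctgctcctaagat

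Array quality bore on these genes as follows. Of the 36 histone probes, between 14 and 35 were well above background in both channels on each of the 6 arrays of the larger design, and between 26 and 36 in at least 1 channel. None was saturated, and none was left out as an outlier spot. Over 100-kb windows the manual U2OS arrays correlated at r = 0.933, the automated arrays at 0.979 and the K562 arrays at 0.872. The number of arrays, 2 against 4, limits the precision.

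The cluster replicated early in K562, and in U2OS its timing was near the median probe or later. Its 23 windows of 100 kb with at least 3 probes averaged 1.51 in K562 sorted by the new and 1.18 in K562 sorted by the old method. In U2OS they averaged 0.27 and 0.28 in manually handled and −0.60 and −0.82 in automated U2OS samples. Both K562 arrays were above every U2OS array, and the automated arrays were the lowest.

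The flanks, each of 2.4 Mb, did not follow one direction. The 24 windows of the lower flank averaged −1.72 and −1.42 in K562, −0.60 and −0.42 in manually handled and −0.46 and −0.48 in automated U2OS samples. There K562 was the later line on both of its arrays. The 24 windows of the higher flank averaged 1.11 and 0.76 in K562, 0.32 and 0.30 in manually handled and 0.20 and 0.24 in automated U2OS samples. On average K562 was again the earlier line there, but not evenly. K562 minus U2OS had a median of 0.39 over these windows. It ranged from 2.48 in the window starting at 29000001 to −0.54 in that starting at 30500001.

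**Figure D1:**
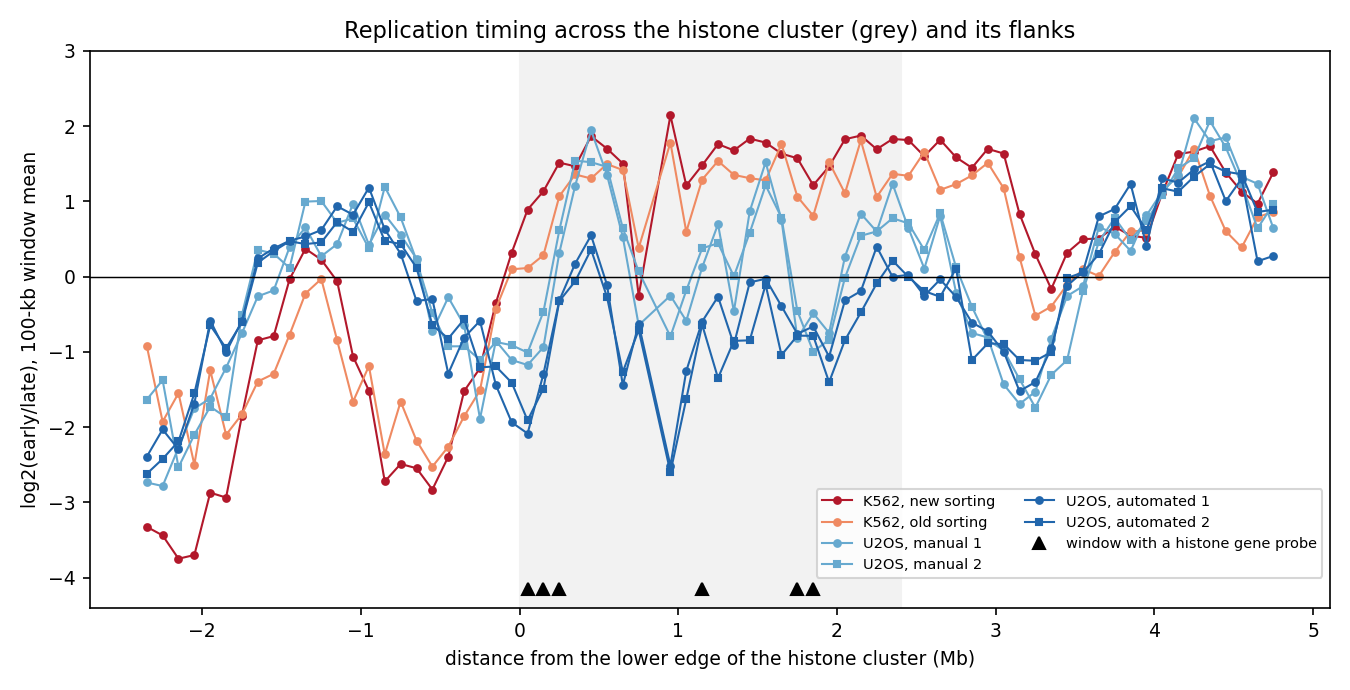
Log2(early/late) of 100-kb windows against the distance in Mb from the lower edge of the histone cluster, with 1 line per array, the cluster in grey and triangles under windows that hold a histone gene probe. The K562 lines climb from below −2 in the lower flank to above 1 in most of the cluster, while the U2OS lines fall below 0 at its lower edge and the manual and automated lines separate inside it.

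Set against both flanks together, the cluster stood 1.82 and 1.51 above them on the K562 arrays, 1.66 ± 0.22 (SD, n = 2). The same contrast was 0.40 and 0.34 in manually handled and −0.47 and −0.70 in automated U2OS samples, −0.11 ± 0.56 (SD, n = 4). The lines did not overlap, and they differed by 1.77 with an exact permutation p of 0.133 (two-sided), the smallest that 2 against 4 arrays allow. The choice of flank set the size. Against the lower flank alone the cell lines differed by 2.64, and against the higher flank alone by 0.90, each again with an exact permutation p of 0.133. In U2OS the cluster was above the lower flank by 0.27 ± 0.60 (SD, n = 4) and below the higher flank by 0.49 ± 0.53 (SD, n = 4), neither of which exceeds the spread between its arrays.

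Window by window, 20 of the 23 cluster windows were early in K562 (limma, Benjamini-Hochberg adjusted p under 0.05 against 0, with all 6 arrays sharing 1 estimate of the spread), against 37.4% of the 24162 windows tested over the genome. None was late in K562, where the genome gave 43.2%. In U2OS, 3 of the 23 were early, against 40.2% of all windows, and 9 were late, against 43.7%. Without the new-sorting array, 13 of the 23 were early in K562, with 27.6% of all windows.

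The lines were then compared in the same limma fit. Of the 23 windows, 12 were earlier in K562, where 9.51% of all windows were. None was later in K562, against 12.4% of all windows, and the difference was positive in all 23. In 19 of the 23 both K562 arrays were above every U2OS array, as in 18.6% of all windows. Across the genome the median window differed by −0.09, against 1.67 in the cluster. In 10 of the 12 windows the cell-line mean was positive in K562 and negative in U2OS. The same held in 1516 of the 2299 windows of the genome that were earlier in K562. In the lower flank 14 of 24 windows were later in K562 and 1 was earlier, and in the higher flank 8 of 24 were earlier and none later.

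How many windows passed depended on which U2OS arrays K562 was set against. Against the automated arrays alone, 20 of the 23 were earlier in K562, with 8.64% of all windows. Against the manual arrays alone, 3 were, with 2.38% of all windows. With each sorting and handling method fitted as a group of its own, which takes the differences between the handling methods and between the K562 arrays out of the spread and leaves only the U2OS pairs to estimate it, 21 were earlier in K562 and 19.7% of all windows were. Normexp background correction in place of the deposited log ratio left 5 windows, with 2.72% of all windows. None of these settings gave a window that was later in K562.

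**Figure D2:**
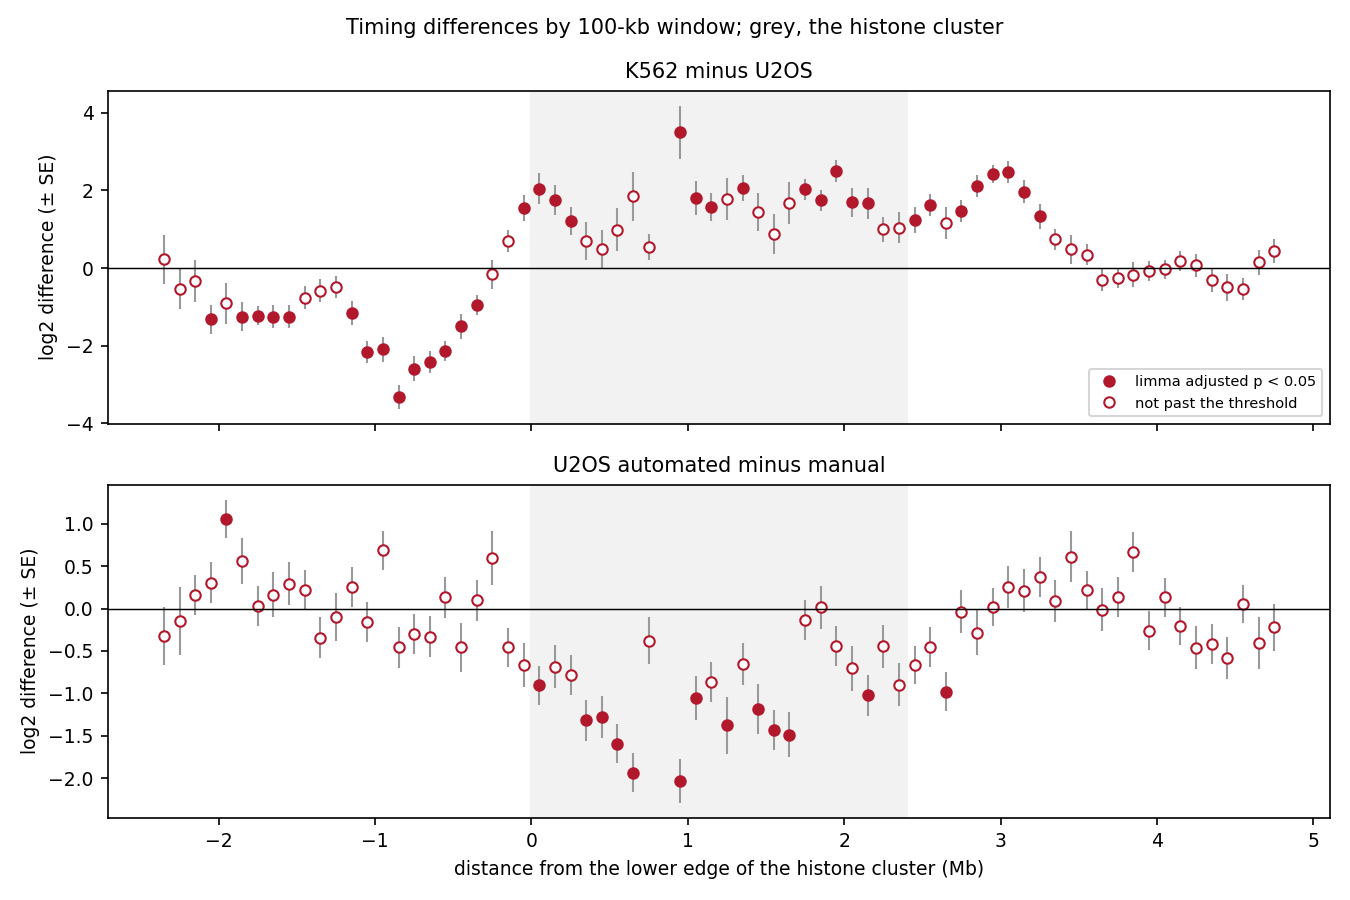
Difference in log2(early/late) by 100-kb window, with the standard error of the limma fit, against the distance in Mb from the lower edge of the cluster (grey): above, K562 minus U2OS, and below, U2OS automated minus manual. Filled points had a limma adjusted p under 0.05. In the cluster 12 of 23 windows are filled in either panel, above 0 in the upper and below 0 in the lower one.

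The largest difference was in the window from 26900001 to 27000000, whose only named gene on the array was the noncoding RNA gene NCRNA00240. It rested on 4 probes. It read 2.14 and 1.78 in K562, −0.25 and −0.80 in manually handled and −2.51 and −2.60 in automated U2OS samples. This was also the highest window of the cluster in K562, while U2OS ranged from near the median probe to far later. The difference was 3.50 (SE 0.68, limma adjusted p = 0.00849).

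The smallest difference was in the window from 26400001 to 26500000, which holds butyrophilin genes. Its values were 1.86 and 1.30 in K562, 1.94 and 1.52 in manually handled and 0.55 and 0.36 in automated U2OS samples. K562 and the manual U2OS arrays overlapped, and this was the highest window in U2OS. The difference of 0.49 (SE 0.48) did not pass the test (limma adjusted p = 0.546).

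The window from 27900001 to 28000000, just above the last histone genes, holds no histone probe. It read 1.46 and 1.52 in K562, −0.75 and −0.84 in manually handled and −1.06 and −1.40 in automated U2OS samples. Every K562 value was positive and every U2OS value negative. The difference was 2.50 (SE 0.28, limma adjusted p = 0.00109), and it passed the threshold under 22 of 22 alternative settings.

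In K562 the lowest window of the cluster was 26700001 to 26800000, with 3 probes, at −0.25 and 0.38. In U2OS the lowest was the first window, 26000001 to 26100000, with HIST1H1A, HIST1H2AB and HIST1H3B. There K562 read 0.89 and 0.11, the manual arrays −1.17 and −1.01, and the automated arrays −2.08 and −1.91. Both K562 values were above 0 and the U2OS values were all below −1.

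The edges of the stretch were not edges of the difference. Just outside the lower edge, from 25900001 to 26000000, the lines differed by 1.55 (SE 0.34, limma adjusted p = 0.0138), against 2.05 (SE 0.40, limma adjusted p = 0.00914) in the first window inside. Just inside the upper edge, from 28300001 to 28400000, they differed by 1.04 (SE 0.39, limma adjusted p = 0.101), against 1.23 (SE 0.33, limma adjusted p = 0.0311) just outside. Beyond it the difference rose to 2.48 (SE 0.29, limma adjusted p = 0.00115) from 29000001 to 29100000. Below the cluster the direction turned, and from 25100001 to 25200000 K562 was the later line, with a difference of −3.32 (SE 0.30, limma adjusted p = 0.000776).

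Within the cluster the histone genes lay in 3 blocks. The first, from 26000001 to 26300000, held 17 of the named genes. The second, from 27100001 to 27200000, held 3, and the third, from 27700001 to 27900000, held 9. All 6 windows with a histone probe were earlier in K562, as were 6 of the 17 without one and 9.51% of all windows. Both K562 arrays were above every U2OS array in each of the 6 and in 13 of the 17 (18.6% of all windows). The median difference was nearly the same, 1.75 with and 1.66 without a histone probe.

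The first block averaged 1.18 and 0.49 in K562, −0.60 and −0.29 in manually handled and −1.23 and −1.24 in automated U2OS samples. The second averaged 1.48 and 1.29, 0.12 and 0.38, and −0.60 and −0.64, in the same order. The third averaged 1.39 and 0.93, −0.65 and −0.73, and −0.71 and −0.79. K562 was above U2OS in all 3 blocks, and only in the third did the manual and automated arrays give nearly one level.

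**Figure D3:**
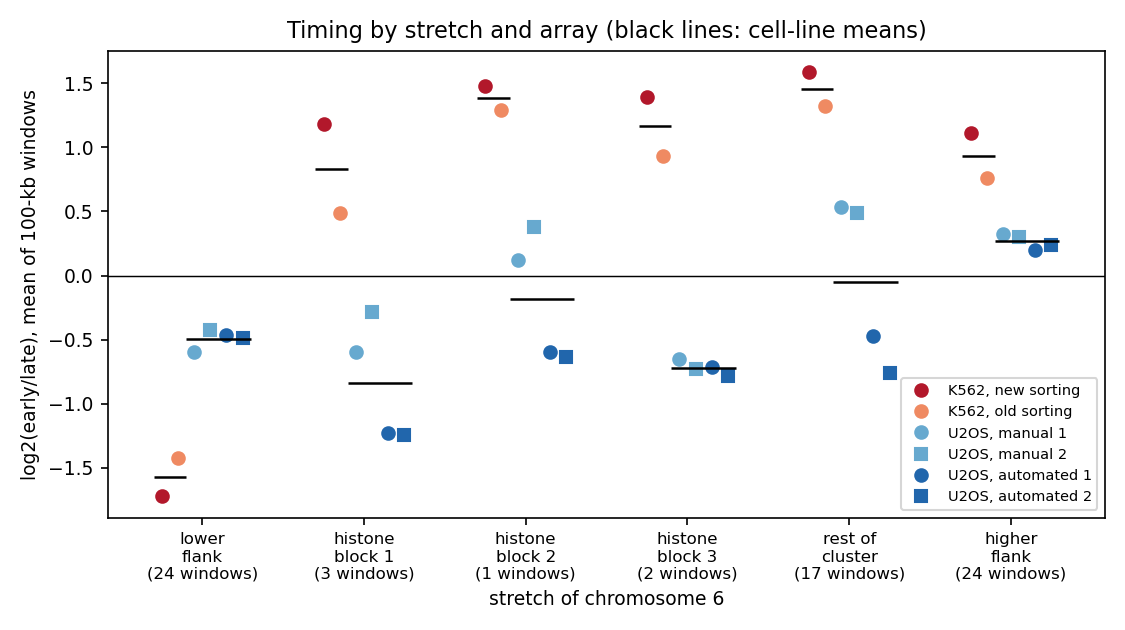
Mean log2(early/late) of the 100-kb windows in each stretch of chromosome 6, with 1 point per array and black lines at the cell-line means. K562 lies below U2OS in the lower flank and above it in every other stretch, and the 4 U2OS arrays lie together in histone block 3 and in the flanks.

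In neither line were the histone windows the earliest of the cluster. The 6 windows averaged 1.30 and 0.77 in K562, −0.50 and −0.32 in manually handled and −0.95 and −0.99 in automated U2OS samples. The other 17 windows averaged 1.59 and 1.32, 0.54 and 0.49, and −0.47 and −0.76, in the same order. Histone windows were thus lower than the others on 6 of 6 arrays, by 0.42 ± 0.18 (SD, n = 2) in K562 and by 0.64 ± 0.36 (SD, n = 4) in U2OS. That contrast differed between the lines by 0.22, with an exact permutation p of 0.667.

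By gene, 9 of the 34 histone genes were earlier in K562 (limma over 24662 gene names, Benjamini-Hochberg adjusted p under 0.05), where 5.01% of all genes were. None was later, against 6.64% of all genes. At an unadjusted p under 0.05 the limma fit gave 19 earlier and 0 later. The share of all genes at an unadjusted p was not counted, here and for the groups below. In 18 of the 34 both K562 arrays were above every U2OS array, as in 15.1% of all genes. The difference was positive for 32 of the 34, and for 10656 of all 24662 genes. Its median over the histone genes was 1.40, against −0.12 over all genes. Between 30 and 33 of the 34 were positive under other background corrections, centrings and scales, and 24 of 25 with dim probes left out. The median fell to 0.79 with normexp, 0.89 with loess and 0.54 with no background correction. Against 0, 13 were early in K562 (42.5% of all genes) and none late (19.8%), while in U2OS 4 were early (55.5%) and 12 late (20.2%).

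Most of these calls rested on single probes, and their number depended on the arrays and the background correction. Without the new-sorting array none of the 34 passed, with 1.61% of all genes, and without the old-sorting array 6 did, with 2.43%. Without the first or the second automated array 6 passed, with 2.92% and 2.58%. Against the manual U2OS arrays alone 1 passed, with 0.847% of all genes, and against the automated arrays alone 10, with 6.37%. With normexp background correction 1 of 34 passed, a share near the 1.69% of all genes, and with no background correction none did, with 0.637%.

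**Figure D4:**
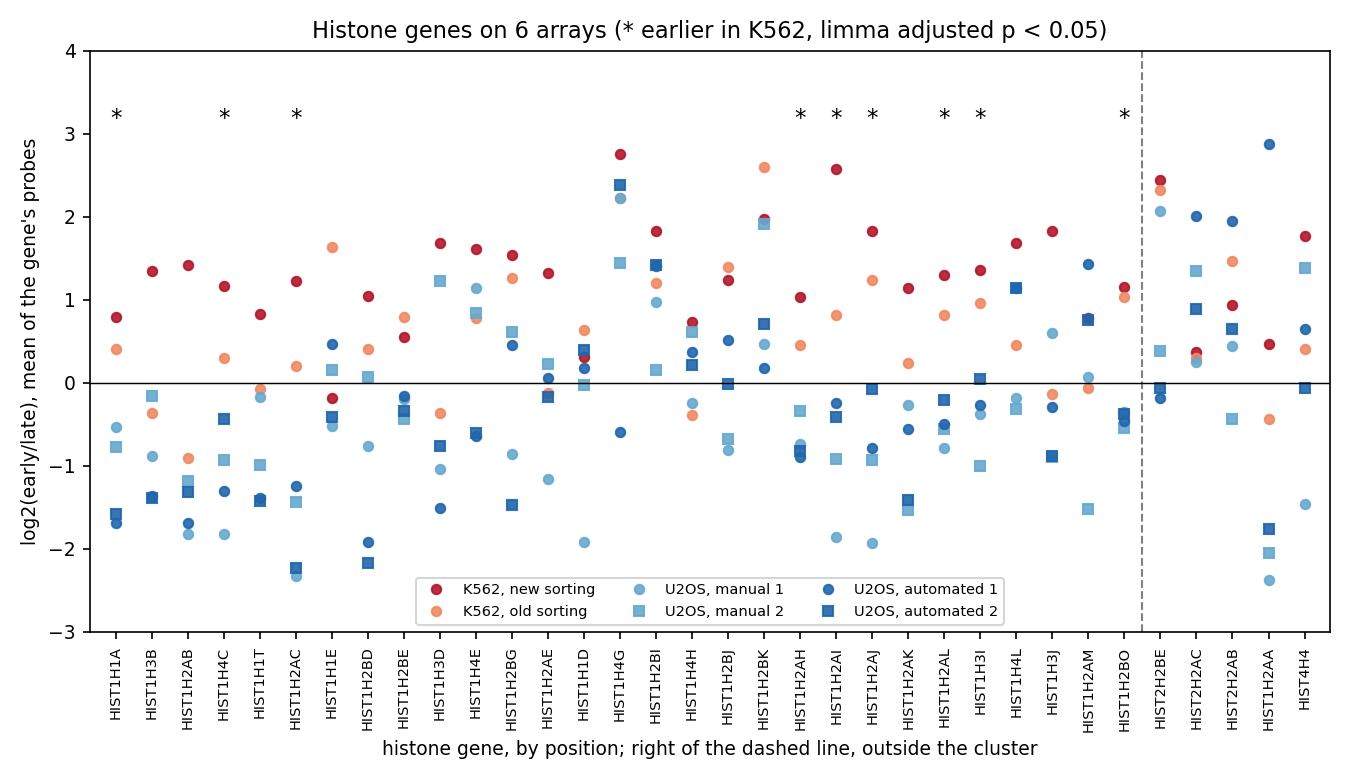
Log2(early/late) of the 34 histone genes in order of position, those outside the cluster right of the dashed line, with 1 point per array and an asterisk over the 9 genes earlier in K562 by limma. In 18 genes both K562 points lie above all 4 U2OS points (15.1% of all genes).

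Genes of H2A, the core histone that pairs with H2B, held 5 of the 9 called genes, from 12 measured, and each other family held 1. Over all genes, 5.01% were called earlier in K562. HIST1H2AC, read by 2 probes at 26124355 to 26124482, gave 1.23 and 0.20 in K562, −2.32 and −1.44 in manually handled and −1.25 and −2.23 in automated U2OS samples. Every K562 value was positive and every U2OS value below −1. The difference was 2.52 (SE 0.46, limma adjusted p = 0.0109).

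HIST1H2AI, at 27776375 to 27776425, had the largest difference of the family. It read 2.58 and 0.82 in K562, −1.85 and −0.91 in manually handled and −0.24 and −0.41 in automated U2OS samples. The K562 arrays were far apart but both above U2OS, and the difference was 2.55 (SE 0.60, limma adjusted p = 0.0306). HIST1H2AJ, beside it, differed by 2.46 (SE 0.51, limma adjusted p = 0.0175).

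HIST1H2AH, whose shared letters are printed above, and HIST1H2AL were also called. HIST1H2AH read 1.03 and 0.46 in K562 and between −0.90 and −0.34 on the U2OS arrays. HIST1H2AL, over its 2 probes, read 1.30 and 0.82 in K562 and between −0.79 and −0.20 in U2OS. In both genes the lines lay on opposite sides of 0, with differences of 1.45 and 1.57. Of the 7 other H2A genes, HIST1H2AK and HIST1H2AB did not overlap between the lines but missed the threshold, at limma adjusted p of 0.0649 and 0.101.

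H2B genes were the highest of the families in K562, with a median of 1.36 over 8 genes. Of the 8, 7 were early there, against 42.5% of all genes. HIST1H2BO was the 1 called between the lines. It read 1.15 and 1.03 in K562, −0.35 and −0.54 in manually handled and −0.46 and −0.37 in automated U2OS samples. The groups did not overlap, and its difference, with the smallest SE among the called genes, was 1.52 (SE 0.29, limma adjusted p = 0.013).

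The other H2B genes did not pass the threshold. HIST1H2BK read 1.97 and 2.60 in K562, 0.47 and 1.91 in manually handled and 0.18 and 0.71 in automated U2OS samples, and it was early in both lines. HIST1H2BJ read 1.24 and 1.40 in K562 and between −0.81 and 0.52 in U2OS, with a limma adjusted p of 0.0533 for the difference. HIST1H2BG, whose shared letters are printed above, read 1.54 and 1.26 in K562 and between −1.47 and 0.61 in U2OS. In 7 of the 8 genes both K562 arrays were above every U2OS array (15.1% of all genes), HIST1H2BI being the exception.

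Of the 4 genes of linker histone H1, only HIST1H1A was called. It read 0.79 and 0.41 in K562, −0.54 and −0.77 in manually handled and −1.68 and −1.58 in automated U2OS samples, a difference of 1.74 (SE 0.42, limma adjusted p = 0.0335). HIST1H1T read 0.83 and −0.07 in K562 and between −1.42 and −0.17 in U2OS. HIST1H1D, at 0.31 and 0.64 in K562 and between −1.92 and 0.39 in U2OS, overlapped, as did HIST1H1E. No H1 gene was early in K562 against 0, where 42.5% of all genes were.

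Of the 4 genes of H3, the core histone that carries many of the regulatory modifications, HIST1H3I was called. It read 1.36 and 0.96 in K562, −0.37 and −1.01 in manually handled and −0.27 and 0.05 in automated U2OS samples, a difference of 1.56 (SE 0.38, limma adjusted p = 0.0328). HIST1H3B, HIST1H3D and HIST1H3J overlapped between the lines, each with a positive value on the new-sorting and a negative one on the old-sorting array.

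H4 genes, which encode the partner of H3 in the nucleosome, had the smallest median difference of the families, 0.99 over 6 genes. This rank depended on the processing. With normexp H1 was the smallest, at 0.52 against 0.58 for H4, and with loess too, at 0.73 against 0.82. HIST1H4C was the 1 called. It read 1.17 and 0.30 in K562, −1.83 and −0.93 in manually handled and −1.30 and −0.44 in automated U2OS samples, a difference of 1.86 (SE 0.46, limma adjusted p = 0.0355). HIST1H4G was the highest histone gene in both lines. It read 2.76 and 2.22 in K562, 2.23 and 1.45 in manually handled and −0.59 and 2.38 in automated U2OS samples. The automated arrays thus disagreed on its single probe. The lines overlapped at HIST1H4H, with 0.73 and −0.39 in K562 and between −0.24 and 0.61 in U2OS.

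Across blocks, 3 of the 17 genes of the first were called and 1 of the 3 of the second. In the third block 5 of the 9 were. Of all genes, 5.01% were called earlier in K562. Median differences of the blocks were 1.18, 1.47 and 1.56.

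None of the 5 histone genes outside the cluster was called between the lines by limma, and 1 had an unadjusted p under 0.05. On chromosome 1, HIST2H2BE, at 149857165 to 149857224, read 2.44 and 2.32 in K562, 2.07 and 0.39 in manually handled and −0.18 and −0.07 in automated U2OS samples. HIST2H2AC read 0.37 and 0.30 in K562 and between 0.25 and 2.01 in U2OS, where it was early. The window with these 2 genes and HIST2H2AB was early in both lines, at 1.27 and 1.04 in K562 and between 0.59 and 0.94 in U2OS. The lines differed there by 0.36 (SE 0.25, limma adjusted p = 0.381).

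On chromosome 12 the window from 14900001 to 15000000, with HIST4H4 and the replication-independent H2AFJ, read 0.33 and 0.14 in K562, −1.09 and −0.41 in manually handled and −1.75 and −1.89 in automated U2OS samples. It was earlier in K562 by 1.52 (SE 0.43, limma adjusted p = 0.0401). The HIST4H4 probe itself ranged from −1.46 to 1.39 in U2OS and did not follow its window. HIST1H2AA, in the lower flank, read 0.47 and −0.44 in K562, −2.38 and −2.05 in manually handled and 2.87 and −1.77 in automated U2OS samples, so 1 automated array decided its mean.

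Of 50 genes in the cluster without a histone name, 13 were earlier in K562 (5.01% of all genes), 37 did not pass and none was later (6.64%). Some of the 50 lie inside the histone blocks under a transcript identifier in place of a gene symbol. Whether these are histone transcripts was not looked up. In 30 of the 50 both K562 arrays were above every U2OS array (15.1% of all genes), and the median difference was 1.26. In K562, 33 of the 50 were early (42.5% of all genes), and their median level was 1.37, against 0.73 for the 29 histone genes of the cluster.

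Among them the 7 butyrophilin genes, a family related to immunoglobulins that includes regulators of gamma delta T cells, had a median difference of 0.38. None passed the limma test, and 1 had an unadjusted p under 0.05. BTN2A3, the highest by the mean over all 6 arrays, read 1.99 and 1.17 in K562, 3.27 and 2.48 in manually handled and 0.75 and 0.57 in automated U2OS samples. BTN3A2, the lowest by that mean, read 0.68 and 0.57, 0.66 and 0.81, and −0.11 and 0.14, in the same order. In both genes K562 lay within the range of the U2OS arrays, and the manual arrays were above the automated ones.

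Of 13 genes with a zinc finger name, a class that mostly encodes DNA-binding proteins, 3 were earlier in K562 (5.01% of all genes). The 3 include ZNF204P, whose name marks a pseudogene. The median difference of the 13 was 1.48. ZNF391 read 2.59 and 2.23 in K562, −0.63 and 0.24 in manually handled and −1.75 and −1.05 in automated U2OS samples. The lines stood well apart, with a difference of 3.21 (SE 0.52, limma adjusted p = 0.00725). By the mean over all 6 arrays ZNF187 was the highest of them and ZNF165 the lowest. They differed by 0.77 and 0.60 between the lines, neither past the threshold. The 1 olfactory receptor gene, OR2B2, read 1.44 and 1.24 in K562 and between −1.21 and 0.03 in U2OS, and was earlier in K562 by 2.16 (SE 0.42, limma adjusted p = 0.0135).

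Genes that act on histone genes, but lie elsewhere, were examined as a list. Of 23 gene names listed for histone gene expression 21 were measured, of which 14 were early in K562 (42.5% of all genes) and 19 in U2OS (55.5%). Only POU2F1, which encodes the octamer-binding factor OCT-1, was called between the lines (5.01% of all genes earlier and 6.64% later in K562). It read 1.43 and 1.38 in K562 and between 0.03 and 0.40 in U2OS, and was earlier in K562 by 1.19 (SE 0.30, limma adjusted p = 0.0363). NPAT, the coactivator of the histone locus body, read 1.53 and 1.47 in K562 and between 0.90 and 1.44 in U2OS. SLBP read 1.59 and 1.37 in K562 and between 1.56 and 2.16 in U2OS. Neither passed the test.

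Of 16 listed replication-independent histone genes, 12 were measured and 1 was called earlier in K562 (5.01% of all genes). This was H2AFJ, which shares its window with HIST4H4. It read −0.33 and 0.50 in K562, −1.23 and −1.14 in manually handled and −1.87 and −2.15 in automated U2OS samples, and was earlier in K562 by 1.68 (SE 0.42, limma adjusted p = 0.0378). The median difference of the list was −0.27, and it ranged from −0.35 to 0.02 over the scalings tried, so it has no settled direction. Of 12 listed histone chaperones, which hand histones to DNA, 11 were measured and none passed the limma test in either direction, nor at an unadjusted p under 0.05, with 5 early in K562, a share near the 42.5% of all genes, and 10 in U2OS (55.5% of all genes). Their median difference was −0.43, against −0.12 over all genes.

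The cluster was later in the automated than in the manually handled U2OS samples. Of the 23 windows, 12 were later on the automated than on the manual arrays (limma on the 4 U2OS arrays, adjusted p under 0.05), where 6.39% of all windows were. None was earlier, against 1.98% of all windows. Of the 23 differences 22 were negative, as were 15443 of the 24162 over the genome. The median cluster window differed by −0.91 and the median window of the genome by −0.18. Over the cluster each automated array averaged below both manual arrays, −0.60 and −0.82 against 0.27 and 0.28. The number of windows called changed strongly with the array left out. With 1 automated array left out, only the manual pair estimates the spread. The counts therefore cannot show whether the difference needed both automated arrays. Signal quality differed between the pairs. On the automated arrays 98.5% and 93.6% of cluster probes were well above background in both channels, against 56.4% and 47.0% on the manual arrays. With dim probes left out, 7 of the 23 windows were later on the automated arrays, with 2.20% of all windows. The part of signal quality in the difference was not tested.

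The difference was not even along the cluster. It was widest in the window from 26900001 to 27000000, at −2.03 (SE 0.26, limma adjusted p = 0.0139), and in that from 26600001 to 26700000. The latter read 0.53 and 0.64 in manually handled and −1.44 and −1.27 in automated U2OS samples, so the U2OS pairs fell on either side of 0. It was −1.94 there (SE 0.23, limma adjusted p = 0.0135). Of the 6 histone windows only the first was called (6.39% of all windows), at −0.91 (SE 0.23, limma adjusted p = 0.0447). In the third histone block the automated arrays averaged 0.06 below the manual arrays, and the values of the pairs overlapped. The flanks differed by 0.03 and −0.09.

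The K562 sorting methods were compared on 1 array each, with no replicate check. The new-sorting array was above the old-sorting array in 20 of the 23 cluster windows and for 28 of the 34 histone genes. Its window values were also more spread over the genome, with an SD of 1.88 against 1.23. The array labelled 44k, which had at least 1 probe in 22 of the cluster windows, averaged 1.31 over the cluster, −0.94 over the lower and 1.06 over the higher flank. On that array 3.19% of the cluster probes were well above background in both channels, against 47.0% to 98.5% on the other arrays, and 1 of the 36 histone spots was, so these means rest mostly on spots not well above background in at least 1 channel.

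Total nascent DNA signal was the mean of log2 Cy3 and log2 Cy5 with 0 at the median probe. It comes from the same channels of the same spots as the timing ratio, so it is not a separate measurement. In the cluster it was 0.56 and 0.81 in K562, 0.20 and 0.54 in manually handled and 0.14 and 0.14 in automated U2OS samples. Both K562 arrays were above all U2OS arrays, with a difference of 0.43 and an exact permutation p of 0.133. K562 was higher in the flanks too, by 0.92 in the lower and by 0.45 in the higher one. Its part in the timing difference was not tested.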

How the data were processed

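BrdU-labelled DNA of early (Cy3) and late (Cy5) S phase was compared on 7 two-colour Agilent arrays. The deposited values used here were the authors' log10 ratio of late over early, intensity per channel, and gene names and positions on hg19, written by Feature Extraction 11.5.1.1, per the file headers. The submitters' processing notes name version 9.1. The log10 ratio comes from background-subtracted, dye-normalized signals. It was turned to log2(early/late), outlier spots were left out, saturated ones kept, the median over chromosomes 1 to 22 and X was subtracted per array, and repeated spots were averaged. Normexp correction (offset 50) was an alternative only.

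Probes were averaged per gene name and per 100-kb window with at least 3 probes on each of 6 arrays. Tests used limma 3.58.1 in R 4.3.3 with Benjamini-Hochberg adjustment over all windows or genes (threshold 0.05), checked on simulated data, and exact permutation over arrays for single values. With few windows shifted, the simulated window test missed most shifts, so a window that did not pass is not shown to be alike in the lines. Members and lists were chosen with earlier results of these data known. Named were all histone genes, the extreme and edge windows, and the extreme or called members of the other lists. Same-numbered U2OS arrays had deviations that correlated at −0.011, so the numbers do not pair them. No dye was swapped, so a dye effect cannot be told apart from timing. Of the 34 histone names, 31 matched 1 current RefSeq symbol, and the array's names were kept.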

Additional observations from a re-analysis of the deposited data

Results flagged for a closer look

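Of 71 values tested for an array standing apart among the 4 U2OS arrays, 3 did, and chance alone flags about 5%. HIST1H2AA read 2.87 on the first automated array, against −2.38, −2.05 and −1.77 on the others. The window at 26.7 Mb read 0.068 on the second manual array, with the others between −0.71 and −0.63. The window at 27.7 Mb read −0.46 on the second manual array, against −0.82, −0.78 and −0.76. In 10 of the 12 cluster windows with a called difference between the cell lines, the line means had opposite signs, positive in K562 and negative in U2OS. Over the genome this held in 1516 of the 2299 windows earlier in K562.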

How the results depend on the processing

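No setting reversed the direction of a called difference, and no cluster window was later in K562 under any setting run. The share of cluster windows earlier in K562 (52.2%) was 21.7% with normexp, 8.70% with no background correction, 30.4% with loess, 78.3% with dim probes left out, 91.3% with sorting and handling methods as groups, 87.0% without both manual and 13.0% without both automated arrays. Leaving out 1 array gave 39.1% to 56.5%. The share early in K562 (87.0%) was 56.5% to 87.0% with 1 array left out, and that late in U2OS (39.1%) was 17.4% with no background correction. The 9 histone genes earlier in K562 became 1 with normexp, 0 with no background correction, 5 with loess, 2 of the 2 with at least 2 probes and 1 without both automated arrays, and 0 to 9 with 1 array left out.

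The share later on automated arrays (52.2%) was 82.6% with normexp and with loess, 87.0% with no background correction, 30.4% with dim probes left out and with mean centring, 34.1% in smaller windows, 88.9% in larger windows and 26.1% with at least 1 probe. It was 0% to 73.9% with 1 array left out and 47.8% with the replicate block. No other comparison had groups that share replicate numbers. The slide as a block could not be estimated and was not run.

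The K562 cluster minus flanks (1.66) was 1.11 with normexp, 0.84 with no background correction, 1.08 with loess, 2.92 and 0.41 against the lower and the higher flank alone, and 1.36 for histone windows. The line difference (1.77) was 0.97 with no background correction, 2.64 and 0.90 against the same flanks. The total signal difference (0.43) was 0.22 from mean spot signals. The causes were not tested. Leaving out both arrays of a handling method, leaving out spots near background in both channels, and rescaled normexp values were alternatives chosen after seeing the data.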
